A study of Mus musculus with 33 samples.

Results

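The histone mark H3K4me1 was compared between endothelial cells of mouse fetuses at E13.5 with 2 added copies of Runx1 and those of the control, from 1 list of enriched regions per group. All regions of both lists were taken, 48795 of E13.5 Ctrl and 88344 of E13.5 2Runx1, 137139 of the 689119 regions and peaks in the H3K4me1 and ATAC-seq lists of the series. The series asked how overexpressed RUNX1 acts on RNA, open chromatin and histone marks in endothelium of different ages, and 6 of its 33 samples belong to this comparison: 2 ChIP libraries and 1 input library in each group. Cells were sorted from whole fetuses of a C57BL/6J-129Sv/J background as positive for CD31 and VEC, low to positive for cKIT, and negative for CD41, CD45 and Ter119, and each ChIP used 50000 cells. E13.5 2Runx1 fetuses carried Cre and the allele named CKI on both chromosomes (Cre; CKI/CKI). E13.5 Ctrl fetuses carried CKI on 1 or both chromosomes (CKI/CKI; CKI/+) and their labels name no Cre. Dams were given 2 mg tamoxifen by injection 24 hours before harvest. For the spread of RNA and for ATAC-seq, endothelial cells sorted in the same way from other groups were also used: E13.5 1Runx1 (Cre; CKI/+), E9.5 Ctrl (CKI/+) and 1Runx1 (Cre; CKI/+) from whole embryos of a C57BL/6J-129Sv/J x B6C3F1 background, and adult liver at 4 to 6 weeks of Ctrl (CKI/CKI; CKI/+) and 2Runx1 (Cre; CKI/CKI). The E9.5 dams were superovulated and had the same tamoxifen dose, and the adults took 2 mg by oral gavage. The labels do not name the promoter that drove Cre, and Cre and the added Runx1 copies cannot be told apart in this design.

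The labels tie each group's replicates to 1 shared region list, so the H3K4me1 comparison has no replicate and no test, and all its differences are descriptions of 2 lists. The labels of 2Runx1 need care: the description of the sample titled input names the enriched track and its regions, and that of the first ChIP replicate names the input track. The list was read here as ChIP against input. Whether 1 ChIP library and the input were exchanged was not tested, and since the list is pooled, no value can be given without that library. Read numbers of the ChIP libraries were not used here, and the depth behind each list is unknown. Equal numbers of top regions and equal covered lengths are therefore given beside the full lists.

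H3K4me1 is laid down by the methyltransferases MLL3 and MLL4 and marks enhancers, both active and primed, and the flanks of active promoters. At the start site of active genes H3K4me3 takes its place. RUNX1 binds DNA with its partner CBFβ at a short motif whose core reads TGTGGT, and it is required in the embryo for the emergence of blood cells from hemogenic endothelium.

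Promoters of 7 genes that were higher in RNA with 2 Runx1 copies are shown as examples of how H3K4me1 lay at gene starts in the 2 lists. Each line gives the 250 bases before a RefSeq gene start on GRCm38.p6, in the direction of the gene, with TGTGGT or its reverse complement ACCACA in capitals. The first 3 lay in no Ctrl region and entirely inside a 2Runx1 region, and hold no match: Runx1 at its second start (chr16:92697330-92697579, minus strand), Alox5, which encodes the 5-lipoxygenase of leukotriene synthesis (chr6:116461179-116461428, minus strand), and Gprin3 (chr6:59426307-59426556, minus strand).
Runx1: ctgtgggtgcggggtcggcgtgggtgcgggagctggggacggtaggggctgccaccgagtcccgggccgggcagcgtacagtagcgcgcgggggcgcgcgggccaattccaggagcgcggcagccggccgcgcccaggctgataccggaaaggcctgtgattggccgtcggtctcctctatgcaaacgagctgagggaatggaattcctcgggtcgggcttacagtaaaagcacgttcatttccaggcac
Alox5: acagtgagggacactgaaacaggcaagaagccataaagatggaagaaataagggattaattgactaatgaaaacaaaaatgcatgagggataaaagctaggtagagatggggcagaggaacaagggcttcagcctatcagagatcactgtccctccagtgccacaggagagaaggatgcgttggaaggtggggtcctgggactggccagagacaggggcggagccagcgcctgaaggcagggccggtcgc
Gprin3: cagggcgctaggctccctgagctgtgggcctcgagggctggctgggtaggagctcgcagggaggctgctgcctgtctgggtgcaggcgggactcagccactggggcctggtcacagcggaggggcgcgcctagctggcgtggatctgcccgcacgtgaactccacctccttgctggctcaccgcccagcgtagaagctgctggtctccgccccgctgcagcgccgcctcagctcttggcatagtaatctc
The next 2 lay wholly or partly in regions of both lists and hold matches, 1 in Ltc4s, the leukotriene C4 synthase gene (chr11:50238533-50238782, minus strand), and 2 in AI467606 (chr7:127091186-127091435, plus strand).
Ltc4s: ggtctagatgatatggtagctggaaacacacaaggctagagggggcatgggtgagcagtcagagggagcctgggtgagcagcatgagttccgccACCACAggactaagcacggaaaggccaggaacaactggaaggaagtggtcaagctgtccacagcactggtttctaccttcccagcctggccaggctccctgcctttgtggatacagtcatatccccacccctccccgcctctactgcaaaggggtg
AI467606: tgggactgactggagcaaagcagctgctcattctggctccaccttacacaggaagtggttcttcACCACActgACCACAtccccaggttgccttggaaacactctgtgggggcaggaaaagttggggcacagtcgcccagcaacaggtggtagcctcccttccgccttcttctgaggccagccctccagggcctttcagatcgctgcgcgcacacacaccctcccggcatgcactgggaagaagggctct
Serpina3g (chr12:104235897-104236146, plus strand), a serine protease inhibitor gene, has 1 match and lay in no region of either list, although an ATAC-seq peak covered it in both groups.
Serpina3g: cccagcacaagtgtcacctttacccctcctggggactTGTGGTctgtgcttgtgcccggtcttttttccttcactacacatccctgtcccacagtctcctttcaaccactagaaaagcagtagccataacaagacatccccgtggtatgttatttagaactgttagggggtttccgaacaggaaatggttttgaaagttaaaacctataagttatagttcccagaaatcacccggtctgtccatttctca
Lgals9, the galectin-9 gene (chr11:78984925-78985174, minus strand), went the other way: its promoter, with no match, lay entirely in a Ctrl region, and 90 bp of it lay in the full 2Runx1 list and 0 bp in the equal-number list.
Lgals9: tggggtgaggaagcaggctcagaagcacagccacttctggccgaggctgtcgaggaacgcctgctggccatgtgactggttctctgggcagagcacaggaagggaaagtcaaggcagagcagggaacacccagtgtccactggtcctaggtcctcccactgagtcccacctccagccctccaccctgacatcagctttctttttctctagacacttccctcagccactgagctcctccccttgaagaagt
The promoters of both starts of Stat4, another gene with higher RNA, lay in no region of either list.

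The 2Runx1 list held 1.81 times as many H3K4me1 regions as the Ctrl list and covered 2.66 times as much of the genome, 88.8 against 33.4 Mb. Its regions were wider, with a median of 688 bp against 505 bp. Regions of at least 2 kb made up 10.2% of the 2Runx1 list (9020) and 3.42% of the Ctrl list (1667), and 82 regions of 2Runx1 and 0 of Ctrl reached 10 kb. The top 48795 regions of 2Runx1 by −log10 q, as many as Ctrl had in all, had a median width of 969 bp and covered 64.5 Mb, 1.93 times the Ctrl length. The median fold enrichment over background was alike, 3.15 in Ctrl and 3.06 in 2Runx1, whereas −log10 q reached 4.39 in Ctrl and 10.5 in 2Runx1. Only 19024 regions of 2Runx1 were needed to cover as many base pairs as all of Ctrl, and 29.1% of them were at least 2 kb wide.

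The 5 widest of 2Runx1 overlapped Fli1 (26103 bp), an ETS transcription factor gene of endothelium and blood, Pxn (22285 bp), which encodes the adhesion protein paxillin, Elk3 (20958 bp), another ETS factor gene, Rcsd1 (17931 bp) and Smad7 (17610 bp), the inhibitory SMAD of TGFβ signalling. Ctrl held regions there too, in pieces: 11 Ctrl regions with 17683 bp lay inside the Fli1 region (chr9:32498879-32524981) and 9 with 11752 bp inside the Smad7 region. The widest of Ctrl was 9637 bp over Notch1, the arterial Notch receptor gene (chr2:26483770-26493406), followed by Tpst2 (8894 bp), Nol4l (8747 bp) and the actinin gene Actn4 (8230 bp), and 2Runx1 covered at least 7803 bp of each. Joining regions within 1 kb of each other did not remove the gap in width: the medians became 889 bp in 2Runx1 and 602 bp in Ctrl.

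**Figure D1:**
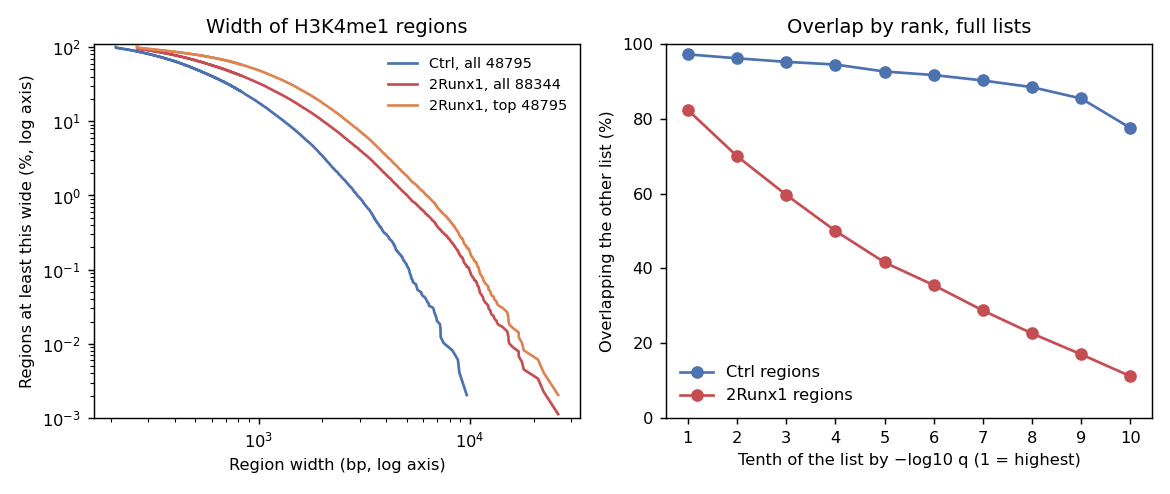
Left, the share of H3K4me1 regions at least as wide as the value on the x axis (bp, both axes logarithmic) in Ctrl, in all 2Runx1 regions and in the top 48795 of 2Runx1. Right, the share of regions that overlap the other group's full list, in 10 equal bins of each list ranked by −log10 q: Ctrl stays between 77.6% and 97.2%, and 2Runx1 goes from 82.4% down to 11.2%. Each list is 1 pooled sample, so there are no error bars.

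Nearly all Ctrl regions were found again in 2Runx1, and the reverse was not so. Of the Ctrl regions 90.9% overlapped a 2Runx1 region by at least 1 bp and 4432 did not, and of the 2Runx1 regions 41.9% overlapped a Ctrl region and 51338 did not. With equal numbers the shares were 74.0% and 58.5%, and 39.4% of the base pairs of the top 2Runx1 regions lay in Ctrl regions. With equal covered length they turned round, to 40.9% of Ctrl and 75.4% of 2Runx1. The share followed the rank within each list, cut into 10 equal bins by −log10 q. In the highest bin of 2Runx1 82.4% overlapped Ctrl, and in the lowest 11.2%, while in Ctrl the shares were 97.2% and 77.6%.

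The 10 highest regions of each list by −log10 q were all present in the other list. Those of Ctrl had −log10 q of 4.01 to 4.39, and among the genes they lay in or nearest to were Spred2, an inhibitor of RAS signalling, Cpeb3, Itpr3, Bicd2, Serpinh1, Spns2, a sphingosine-1-phosphate exporter, Zfp36l2, Sox13 and Septin9. In 2Runx1 they lay in or nearest to Srsf12, Chmp6, Rapgef1, Ctnnbl1, Bcl9l, Dedd2 with Zfp526, Mast3, Sparc, Diaph1 and Tbx21, with −log10 q of 7.88 to 10.5. Among regions without a Ctrl region the 5 highest were in Lamb1, a laminin chain gene (chr12:31268921-31269869, −log10 q 7.46), Mboat7 (7.12), Lmna, the lamin A and C gene (7.02), 1719 bp from Cish, a suppressor of cytokine signalling (6.79), and in Tmem108 (6.78). Among Ctrl regions without a 2Runx1 region the 5 highest were nearest to Ets1 (at 147362 bp), Gngt1, Ankrd54, Bambi and Maf, with −log10 q of 3.13 to 3.43. All 5 were short, 236 to 464 bp, against 553 to 949 bp for the 5 of 2Runx1.

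At active genes H3K4me1 dipped at the start between 2 shoulders in both groups, at different heights. RPKM, the number of reads relative to gene length and library total, was 10 or more in E13.5 Ctrl for 4862 genes. Of these, 2.92% had a Ctrl region at the start itself and 28.5% at 1000 bp after it, with a lower shoulder at 600 bp before it. The full 2Runx1 list also had a dip and shoulders, with 12.0% at the start, 57.9% at 1000 bp after it and 43.7% at 600 bp before it. With equal covered length the 2Runx1 values were 5.33% at the start and 21.8% at 1000 bp after it, so the start was covered more often and that shoulder less often than in Ctrl. Genes with an RPKM of 0.1 to 1 had a single maximum, 300 bp after the start, of 23.7% in Ctrl and 23.8% in 2Runx1 at equal covered length. Among 6873 genes under 0.1 RPKM the maximum was 6.53% in Ctrl and 6.79% in 2Runx1 at equal covered length.

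**Figure D2:**
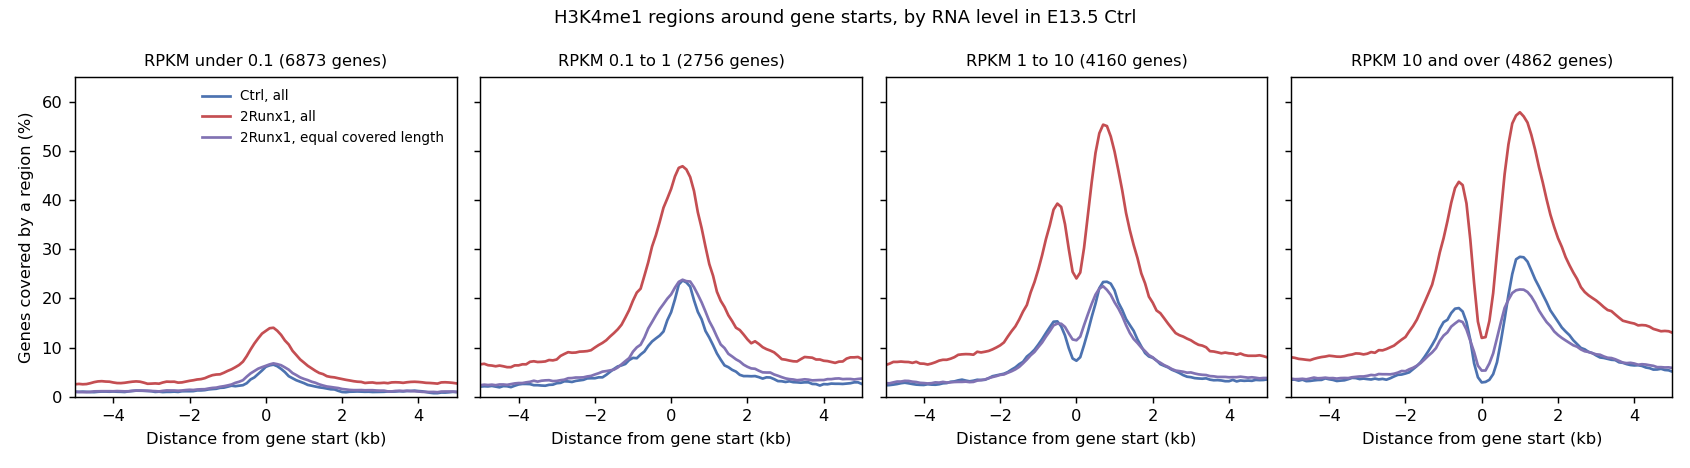
Share of genes whose position at the given distance (kb, positive in the direction of transcription) from the gene start is covered by an H3K4me1 region, for genes grouped by RPKM in the E13.5 Ctrl RNA library. Blue is Ctrl, red all 2Runx1 regions and purple the top 2Runx1 regions with the covered length of Ctrl. The dip at the start appears from an RPKM of 1 upward, and the shoulder after the start reaches 28.5% in Ctrl and 57.9% in 2Runx1 at 10 RPKM and over.

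Distances to genes depended on how list size was matched. Within 10 kb of a gene start lay 48.1% of Ctrl regions, 43.5% of all 2Runx1 regions and 47.8% of the equal-number 2Runx1 regions, and 66.3%, 63.4% and 65.3% overlapped a gene. The share that covered a gene start was 4.32% in Ctrl and 8.99% in 2Runx1 at equal number. Their median widths were 505 and 969 bp, and the part of width in these shares was not tested. Measured from the region's centre, 17.5% of Ctrl and 18.5% of equal-number 2Runx1 regions lay within 1 kb of a start. Within 10 kb the centre shares were 47.4% and 46.6%. At equal covered length 2Runx1 regions, with a median width of 1291 bp, lay closer to gene starts. Of them 52.8% lay within 10 kb and 12.7% covered a start, and the median distance was 8475 bp against 11098 bp in Ctrl. From the centre, 51.1% of them lay within 10 kb and 22.2% within 1 kb. Both 2Runx1 selections were the top-ranked part of their list, set beside all Ctrl regions. Regions of 2Runx1 without a Ctrl region lay farther out, at a median of 16585 bp from a gene start against 10001 bp for those shared with Ctrl. Ctrl regions without a 2Runx1 region were at 17311 bp, against 10616 bp for the shared ones.

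Open chromatin accompanied shared regions more often than regions of 1 list. ATAC-seq marks open chromatin through insertion of a transposase, and its peak lists were called independently of H3K4me1. An ATAC-seq peak of the same group was present in 55.6% of Ctrl regions, 48.4% of all 2Runx1 regions and 62.0% of the equal-number 2Runx1 regions. It was present in 68.8% of the 2Runx1 regions shared with Ctrl, whose median width was 1186 bp, and in 33.8% of those without a Ctrl region, whose median width was 503 bp. Of the latter, 37.6% held a peak of the Ctrl list, which has 96537 peaks against 80857. With ATAC-seq lists cut to equal numbers the shares were 33.8% and 32.7%. Seen from the ATAC-seq peaks, 41.1% of the 7821 peaks called in 2Runx1 and not in Ctrl lay in the full 2Runx1 H3K4me1 list and 16.3% in that of Ctrl. The 23151 peaks called in Ctrl and not in 2Runx1 gave 36.6% and 16.6%. At equal numbers of H3K4me1 regions the 2Runx1 shares of these 2 kinds of peak were 26.5% and 24.1%.

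For single genes, the length covered by H3K4me1 within 10 kb of the gene start was compared, and a difference of at least 2 kb was counted. Of 18650 genes with a start, 2485 (13.3%) had at least 2 kb more in 2Runx1 and 16 (0.0858%) at least 2 kb less, with equal numbers of regions. With equal covered length the counts were 829 (4.45%) and 341 (1.83%). Within 50 kb of the start 7569 (40.6%) had at least 2 kb more and 28 (0.15%) at least 2 kb less. Among expressed genes, those reaching 1 RPKM in 2 or more of the 5 E13.5 RNA libraries, the 10 with the largest excess were Cdc42ep1, an effector of the GTPase CDC42 (7063 bp in Ctrl and 16604 bp in 2Runx1), Zfp710 (895 and 9564 bp), St3gal4, a sialyltransferase gene (1554 and 9988 bp), Cttnbp2nl, Gramd1a, Agrn, which encodes agrin of basement membranes, D930048N14Rik, N4bp3, Ece1, the endothelin-converting enzyme gene, and Dhrs3, a retinaldehyde reductase gene. Ece1 had 3184 bp in Ctrl and 10828 bp in 2Runx1. The 10 with the largest deficit at equal number were Mars2 (3288 bp in Ctrl and 0 bp in 2Runx1), Gopc (2917 and 0 bp), Ripk1, the kinase of TNF signalling, with its neighbour Serpinb6a (2508 and 0 bp, the same regions), Srsf1, a splicing factor gene (2493 and 0 bp), Irak2, Fkbp14 and its neighbour Plekha8 (2181 and 0 bp at both), Zbtb41 and Epm2aip1. All 10 had regions in the full 2Runx1 list, for example 4224 bp at Mars2, 3064 bp at Gopc and 2479 bp at Srsf1, which fell below the rank of the equal-number list. Of the 10 genes with an excess 0 passed the RNA test (limma, 4 at an unadjusted p under 0.05), and of the 10 with a deficit also 0 (1 unadjusted). Over all genes tested in RNA, 1642 of 12546 had an unadjusted p under 0.05 in limma's test.

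A gene start was at hand for 18650 of 23264 genes matched to RefSeq, so gene groups are described over the gene with 10 kb on each side, where 5806 genes (25%) had at least 2 kb more in 2Runx1 at equal number and 41 (0.176%) at least 2 kb less. With full lists 39.1% had more, and with equal covered length 7.41% had more and 4.69% less. Over expressed genes the shares at equal number were 35.6% and 0.275%. With any difference counted at equal covered length, 7207 of the 23264 genes had more in 2Runx1 and 8293 less. Regions were present in both groups for 14788 genes, in 2Runx1 and not in Ctrl for 2903 (12.5%) and in Ctrl and not in 2Runx1 for 120 (0.516%).

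Endothelial identity genes were the most heavily marked of the lists in Ctrl, and 19 of the 25 had at least 2 kb more in 2Runx1, against 1 with at least 2 kb less. Their median covered length was 10294 bp in Ctrl and 16313 bp in 2Runx1 at equal number, against 611 and 1331 bp over all genes. At least 2 kb more was found for 25% of all genes and 35.6% of expressed genes. Ets1 had 37583 bp in Ctrl and 47019 bp in 2Runx1, Fli1 33743 and 54808 bp, and Pecam1, which encodes CD31, 18749 and 34927 bp. Kdr, the VEGF receptor 2 gene, had 19592 and 33062 bp, and Plvap, of endothelial diaphragms, 9777 and 21195 bp. Cdh5, which encodes VE-cadherin, was the exception, with 10687 and 5771 bp. At equal covered length 14 of the 25 genes had more in 2Runx1 and 11 less, against 7207 and 8293 of 23264 over all genes. Over the whole list the summed length of the full 2Runx1 list was 1.81 times that of Ctrl, less than the 2.55 times over all genes. In RNA 0 of the 25 genes passed limma's test. An unadjusted p under 0.05 was found for 3 of them and for 1642 of all 12546 genes tested. Their summed levels were 4406 RPKM in Ctrl and 4517 and 4434 RPKM in the 2Runx1 libraries for the endothelial list.

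Of 16 arterial genes 10 had at least 2 kb more and 0 at least 2 kb less, with medians of 3166 and 6528 bp. Jag2, a Notch ligand gene, had 9267 bp in Ctrl and 20363 bp in 2Runx1, Dll4, the arterial Notch ligand, 13449 and 19597 bp, Notch1 26111 and 32774 bp, and Unc5b, a netrin receptor gene, 14869 and 29906 bp. Of 12 venous and lymphatic genes 8 had at least 2 kb more, among them Nrp2 (18103 and 33644 bp) and Ephb4 (6327 and 12453 bp), while Lyve1 had 2325 and 1881 bp. At equal covered length 10 arterial genes had more in 2Runx1 and 5 less, and of the venous and lymphatic genes 5 had more and 5 less. In RNA 0 of either list passed limma's test, and 2 arterial and 1 venous gene had an unadjusted p under 0.05. Over all genes tested, 1642 of 12546 did.

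Of 20 regulators of hemogenic endothelium and blood stem cells 1 had no Ctrl region. In this list 11 had at least 2 kb more in 2Runx1, against 25% of all genes, and 0 at least 2 kb less. Mecom, a stem cell transcription factor gene, had 20488 bp in Ctrl and 32485 bp in 2Runx1, Tal1, an early blood regulator, 10522 and 20747 bp, and Gata2 9105 and 13468 bp. Adgrg1, the GPR56 receptor gene of emerging stem cells, had 10126 and 26585 bp. Gfi1, a repressor downstream of RUNX1, had 5531 and 6583 bp at an RPKM of 0.01 in Ctrl and 0.09 and 0.07 in 2Runx1. At equal covered length 13 of the 20 genes had more in 2Runx1 and 6 less, against 7207 and 8293 of 23264 over all genes. The summed length of the list in full 2Runx1 regions was 2.24 times that of Ctrl, less than the 2.55 times over all genes. Of the 17 genes tested in RNA, Runx1 passed limma's test, and 8 had an unadjusted p under 0.05, with 5 higher and 3 lower. Over all genes tested, 1642 of 12546 had an unadjusted p under 0.05.

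Of the 7 RUNX genes and their partners 5 had at least 2 kb more in 2Runx1 at equal number, against 25% of all genes. At equal covered length 6 had more and 1 less, against 7207 and 8293 of 23264 over all genes. Their summed length in the full 2Runx1 list was 2.85 times that of Ctrl, beside 2.55 times over all genes. Runx1 had 3656 bp in 6 Ctrl regions and 9966 bp in 2Runx1 at equal number, and 12901 bp in 14 regions of the full list. Runx3 had 2107 and 8042 bp and Runx2 3173 and 5469 bp, and their RNA was at most 0.119 RPKM in the 3 libraries. Cbfa2t3, a corepressor gene of the ETO family, had 15401 and 29014 bp, and Cbfb, the DNA-binding partner, 1286 and 2995 bp.

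The TGFβ pathway is named in the series title. Of 22 components 17 had at least 2 kb more in 2Runx1, against 25% of all genes, and 0 at least 2 kb less. Their summed length in the full 2Runx1 list was 2.28 times that of Ctrl, less than the 2.55 times over all genes. Their medians were 5268 bp in Ctrl and 13855 bp in 2Runx1 at equal number, and the median difference was 6565 bp there and 345 bp at equal covered length, where that of the endothelial list was 1238 bp. Of the receptors, Tgfbr2 had 16244 and 47118 bp, Acvr1 11900 and 27642 bp, Acvrl1, the ALK1 receptor of endothelium, 13738 and 22410 bp, and Tgfbr1 955 and 3668 bp. The SMAD genes Smad3, a signal transducer, and Smad6, an inhibitor, had 20953 and 44416 bp, and 16517 and 27804 bp. Bmpr2 went the other way at equal number, 3391 and 1981 bp, with 8417 bp in the full list. Of 28 target genes 18 had at least 2 kb more and 1, Snai2, at least 2 kb less (4115 and 940 bp). The summed length of the targets in the full 2Runx1 list was 1.97 times that of Ctrl, also below that over all genes. Col4a2, a basement membrane collagen gene, had the longest coverage of the targets, 47244 and 77038 bp. At equal covered length, 13 of the 22 components had more in 2Runx1 and 9 less, and of the targets 17 had more and 10 less. Over all 23264 genes 7207 had more and 8293 less. In RNA 0 components and 0 targets passed limma's test. An unadjusted p under 0.05 was found for 7 of 22 and 5 of 26, against 1642 of 12546 over all genes tested.

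Lists of genes from other cell types differed in how much H3K4me1 they carried. The median was 0 bp in both groups for the 14 macrophage, 13 erythroid and 15 hepatocyte genes, and 7, 7 and 8 of them had no region in either full list. Mesenchymal genes had a median of 469 bp in Ctrl and 1472 bp in 2Runx1, and neural genes 1321 and 2181 bp, among them Nes (9466 and 14736 bp), which encodes nestin. Megakaryocyte genes had medians of 1893 and 3820 bp, with 4 of 10 at least 2 kb longer in 2Runx1, and epithelial genes 709 and 2063 bp, with 1 of 8. The Ctrl medians of the neural, megakaryocyte and epithelial lists and of the leukocyte list, 801 bp, lie above the 611 bp over all genes. Those of the mesenchymal, macrophage, erythroid and hepatocyte lists lie below it. Of 12 leukocyte genes 5 had at least 2 kb more, among them Coro1a (1937 and 7871 bp). Over all genes 25% had at least 2 kb more, and over expressed genes 35.6%. The counts of these small lists do not set them apart from that background. Summed RNA of the 13 erythroid genes was 159 RPKM in Ctrl and 105 and 70.6 RPKM in the 2Runx1 libraries, with 4 globin genes listed at 0 in all 3. For the macrophage list the sums were 73.8, 54.5 and 79.5 RPKM, and for the hepatocyte list 290, 205 and 295 RPKM. In limma's test 8 of 9 erythroid genes had an unadjusted p under 0.05, with 8 lower and 0 higher. So had 10 of 13 hepatocyte genes, with 9 lower and 1 higher. Of 12 macrophage genes 6 had, with 5 lower and 1 higher. Over all genes tested, 1642 of 12546 had an unadjusted p under 0.05. Fewer cells of a type and less RNA per cell cannot be told apart in such bulk libraries, and the part of these cells in the H3K4me1 lists was not tested.

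**Figure D3:**
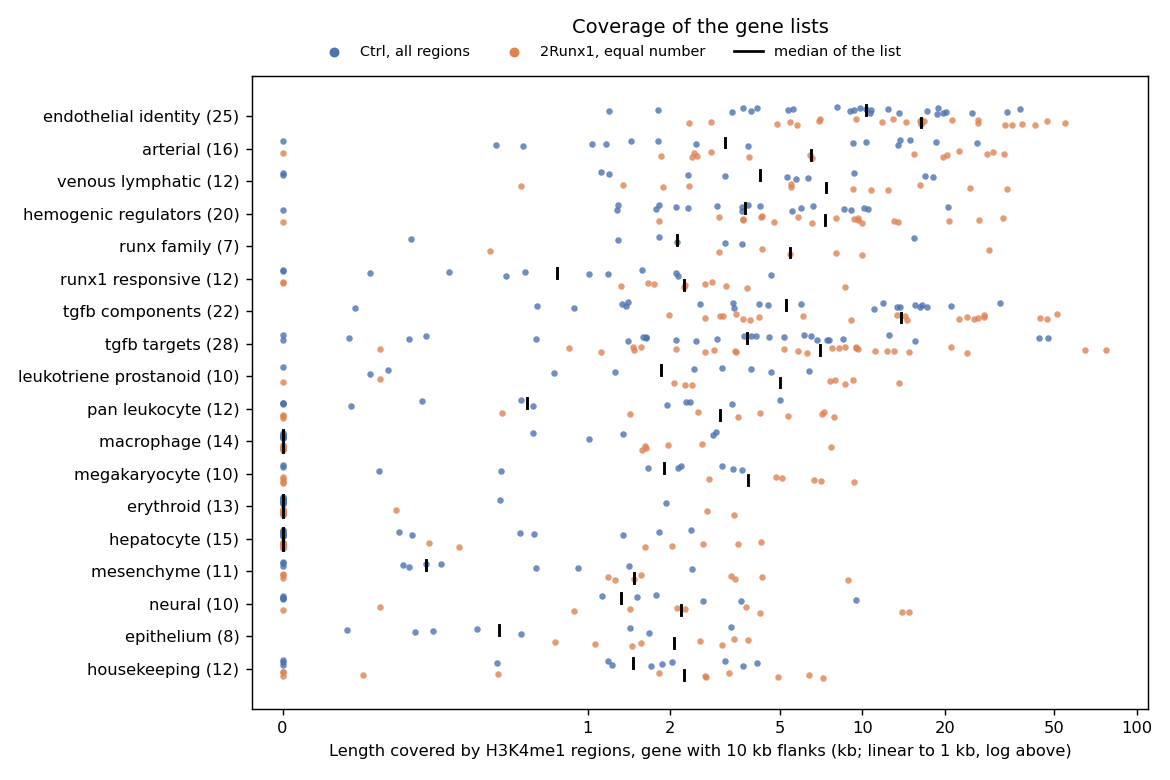
Length covered by H3K4me1 regions over each member of 18 gene lists with 10 kb flanks (kb, linear up to 1 kb and logarithmic above), with all Ctrl regions in blue and the equal number of top 2Runx1 regions in orange. Each point is 1 gene, black bars are list medians and the number of genes is in parentheses. The median of endothelial identity genes moved from 10.3 to 16.3 kb, and those of the macrophage, erythroid and hepatocyte lists are at 0 in both.

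RNA was the readout with a test, since libraries of other groups give its spread. E13.5 Ctrl had 1 RNA library and 2Runx1 had 2, and limma on log2(RPKM + 1) across all 13 RNA libraries of the series called 19 genes higher (0.151% of 12546) and 15 lower (0.12%) at a Benjamini-Hochberg adjusted p under 0.05. Of the 18 higher genes matched to RefSeq, 6 had at least 2 kb more H3K4me1 in 2Runx1, 33.3% against 35.3% of all genes tested, so the share was that of the background. Of the 15 lower genes 2 had at least 2 kb more and 0 at least 2 kb less. With the E13.5 libraries alone, Runx1 was the 1 called gene. Without 2Runx1 replicate 1 or 2 the test called 247 or 113 genes.

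Runx1 itself was at 1.37 RPKM in the Ctrl library and at 22.7 and 25.2 in the 2Runx1 libraries, a log2 difference of 3.39 ± 0.12 (SE, limma adjusted p = 7.68e-07). The table has 1 row for Runx1 and does not separate knock-in from endogenous reads. The regions of the gene clustered around its second start, where 3 Ctrl regions of 405 to 973 bp gave way to a 612 bp and a 3860 bp region in 2Runx1 that took in the promoter printed above. An ATAC-seq peak covered that promoter in both groups. The 250 bases before the first start, at the far end of the gene, lay in no region of either list.

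Stat4, Itgb3, Ltc4s and Alox5, also with higher RNA, had H3K4me1 in both groups, at greater length in 2Runx1. Greater length was not particular to them. With full lists 16 of the 18 genes with higher RNA had more, and so had 11287 of 12205 genes tested and matched to RefSeq. At equal number the median difference was 1690 bp over the 18 genes and 1177 bp over all genes tested. Stat4, a transcription factor of cytokine signalling, was at 0.311 RPKM in Ctrl and 4.03 and 4.01 in 2Runx1 (log2 difference 1.94 ± 0.12, limma adjusted p = 5.43e-05), and had 2133 and 3811 bp of H3K4me1 at equal number. Itgb3, integrin β3 of platelets and vessels, was at 0.862 RPKM in Ctrl and 5.15 and 6.62 in 2Runx1 (1.88 ± 0.13, limma adjusted p = 0.000176). Its coverage was 732 bp in 1 Ctrl region and 2238 bp in 2Runx1 at equal number. The full 2Runx1 list had 5214 bp in 7 regions, 1 of which lay over the end of the gene with the lower coordinate, where Ctrl had an ATAC-seq peak and no region. Ltc4s was at 0.433 RPKM in Ctrl and 2.40 and 3.81 in 2Runx1 (1.50 ± 0.18, limma adjusted p = 0.00809). It had 4640 bp in Ctrl and 8677 bp in 2Runx1, where a single region spanned the gene. Alox5, which acts before Ltc4s in leukotriene synthesis, was at 0.217 RPKM and at 1.41 and 1.23 (0.93 ± 0.14, limma adjusted p = 0.0347), with 286 and 2252 bp.

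The remaining genes with higher RNA differed among themselves. Def6, an exchange factor of leukocytes, had 3941 bp in Ctrl and 10681 bp in 2Runx1, and Nfkbie, an inhibitor of NF-κB, 4290 and 7031 bp. Lgals9, the most abundant of the 19, was at 54.4 RPKM in Ctrl and 104 and 107 in 2Runx1. At equal number it had 1007 and 1324 bp over the gene, but 1007 and 0 bp within 10 kb of its start. In the full 2Runx1 list 4 regions with 4849 bp overlapped the gene or its flanks. Their −log10 q was at most 2.12, near the 2.06 at which the equal-number list ends. E030030I06Rik and Gm4737 had no region in either list, and Serpina3g had 684 bp in the full 2Runx1 list alone. The 10 matched genes with a start in the list of Runx1-responsive genes, which was drawn up from earlier results of these RNA data, counted 2 with at least 2 kb more at the start. Over all genes with a start 2485 of 18650 (13.3%) had at least 2 kb more, so this count does not set the list apart. Of the lower genes, C1qb, of macrophages, Gata1, the erythroid transcription factor gene, and Serpina6, of hepatocytes, had no region in either list. C1qb was at 5.80 RPKM in Ctrl and at 2.12 and 2.24 in 2Runx1 (−1.10 ± 0.09, limma adjusted p = 0.00039).

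**Figure D4:**
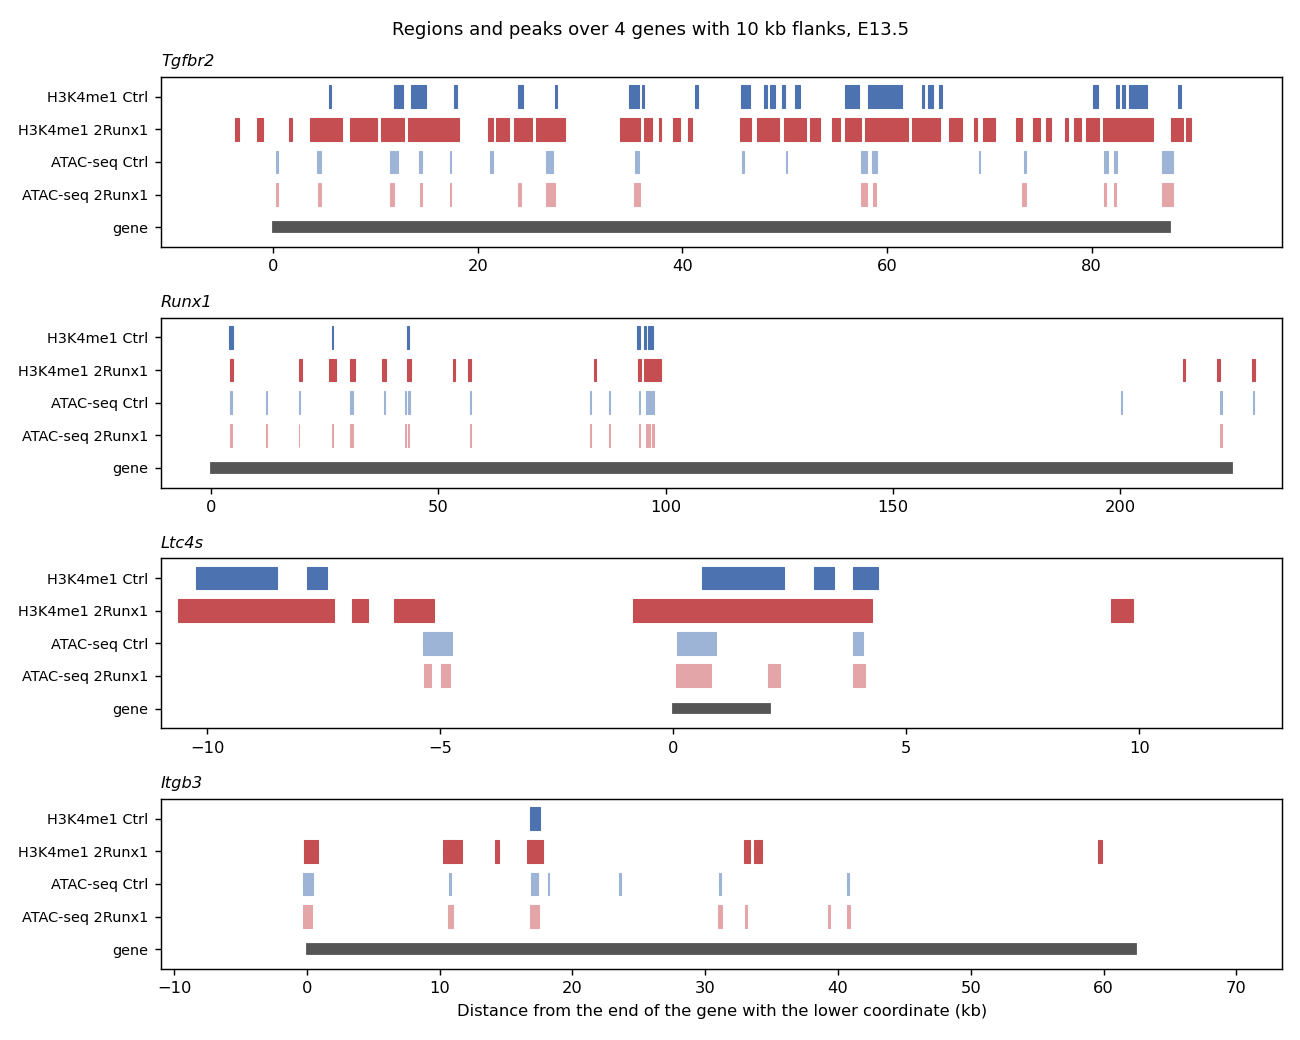
Maps of H3K4me1 regions and ATAC-seq peaks over Tgfbr2, Runx1, Ltc4s and Itgb3 with 10 kb flanks, as distance in kb from the end of the gene with the lower coordinate. Boxes are regions or peaks of the pooled list of Ctrl (blue) or 2Runx1 (red), and the grey bar is the gene. Tgfbr2 goes from 24 regions with 16244 bp to 36 regions with 54171 bp.

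Cdh5 stood apart from the other endothelial genes. In the full lists it had 17 Ctrl regions with 10687 bp and 10 regions of 2Runx1 with 9183 bp. Its RNA was at 148 RPKM in Ctrl and 164 and 156 in 2Runx1 (log2 difference 0.11, limma adjusted p = 0.494), and ATAC-seq peaks covered 5327 bp in Ctrl and 4904 bp in 2Runx1. The fold enrichment of its 2Runx1 regions was low for their significance: the highest fold was 2.75, beside a −log10 q of up to 4.02, whereas in Ctrl they were 3.90 and 2.66. To measure this, the fold of each region was divided by the median fold of regions with like −log10 q in the same list. Of 7088 windows of 100 kb with at least 5 regions in 2Runx1, the window with the lowest ratio was chr8:104000001-104100000, at 0.737, and the next was the adjoining chr8:104100001-104200000, which holds Cdh5, at 0.765. The first percentile of all windows was 0.965.

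All 15 regions of 2Runx1 in those 200 kb had a ratio of 0.625 to 0.825, and all 34 within the 200 kb before and 400 kb after had 0.913 to 1.03. In Ctrl the 19 regions of the same 200 kb had 0.923 to 1.03. The stretch ran from 104039049 to 104191974 and also holds the first part of Bean1, next to Cdh5. Fold and q are the authors' values. The shorter coverage at Cdh5 thus coincided with low fold for given q in the 2Runx1 list, and the part of the one in the other was not tested. Input read numbers over this stretch were not used here, and whether its copy number differed between the groups was not tested. Coverage and fold at Cdh5 may therefore not be comparable between the groups.

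**Figure D5:**
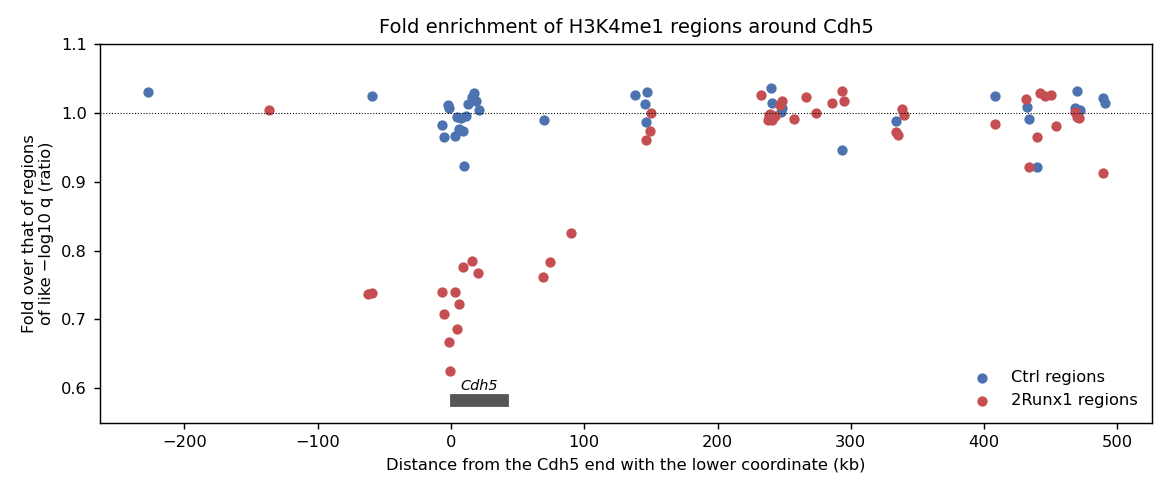
Fold enrichment of each H3K4me1 region around Cdh5, divided by the median fold of regions with like −log10 q in the same list, against distance from the Cdh5 end with the lower coordinate (kb). The 2Runx1 regions over and beside Cdh5 (red) lie between 0.625 and 0.825, and the Ctrl regions (blue) and the 2Runx1 regions farther out lie near 1.

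The X chromosome was sparsely marked in both lists. It held 100 of the Ctrl regions (0.205%) and 897 of the 2Runx1 regions (1.02%), a ratio of 8.97 against 1.71 to 1.91 on the autosomes. At equal number the ratio was 2.89, and at equal covered length it turned round: X held 45 regions of 2Runx1, with 0.0814% of the covered base pairs against 0.124% in Ctrl. Of the ATAC-seq peaks 2.32% lay on X in Ctrl and 2.27% in 2Runx1. The labels do not give the sex of the fetuses. In RNA, Xist, transcribed from the inactive X of females, was at 6.34 RPKM in Ctrl and 5.17 and 3.78 in 2Runx1, and the Y-linked Ddx3y at 6.67, 3.00 and 7.13 RPKM, so that each of these RNA libraries held both. The part of sex in the H3K4me1 lists was not tested.

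The RUNX core motif was somewhat less frequent in promoters with H3K4me1 than in those without. TGTGGT on either strand occurred in 16.8% of all 32851 RefSeq promoters (250 bases before to 50 after the start). It occurred in 13.9% of the 5343 that overlapped a 2Runx1 region and no Ctrl region, in 14.1% of the 3318 in both lists, in 9.97% of the 311 in Ctrl regions alone and in 17.9% of those in neither. The longer TGTGGTTT, which contains the shorter motif, occurred in 1.78% of all promoters and in 1.37% of those in 2Runx1 regions alone. Median GC content was 58.7% in the latter and 50.3% in promoters without a region, and the part of base composition in these shares was not tested.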

How the data were processed

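H3K4me1 ChIP-seq of E13.5 Ctrl and 2Runx1 was deposited as 1 region list per group. The authors' lists hold, per region, −log10 q and a fold, the ratio of ChIP to background, used here to rank and describe regions within a list. The submitters' processing notes name Bowtie2 2.3.5.1, SAMtools 1.1, MACS2 2.1.4, deepTools 3.3.0, STAR 2.7.3a, Subread 2.0.0, featureCounts and edgeR, without roles, and the builds mm10 and GRCm38. RNA was deposited by the authors as RPKM. Replicates are not stated to be separate animals or litters, so p-values may measure technical spread. Low RPKM values placed the effective depth of the 2Runx1 RNA libraries at 0.952 and 0.859 of that of the Ctrl library.

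Overlaps needed at least 1 bp. Regions were ranked by −log10 q, with ties by fold. Gene spans and promoters came from RefSeq (GRCm38.p6), matched by symbol for 23264 of 25239 genes. No genome was used, so the planned motif count in regions was replaced by one in RefSeq promoters, chosen after seeing the data. RNA was tested two-sided with limma 3.58.1 in R 4.3.3, with an intensity trend, on log2(RPKM + 1) over 7 group means for genes that reached 1 RPKM in 2 or more libraries. That scale understates the change of low genes. The spread of the lone Ctrl library was taken from the other groups. The SD of log2 differences between replicates was 0.246 in E13.5 1Runx1 and 0.236 in E13.5 2Runx1. It was 0.137 to 0.164 in the E9.5 and liver groups. The shared spread may thus understate that of E13.5, and SE and adjusted p may be too small. Python 3.11.15 counted regions, with functions tested on simulated data. Alternatives covered list size, threshold, overlap, windows, pseudocount, filter, scaling and left-out libraries. Members and gene lists were chosen with earlier results of these data known. Named genes were Runx1 and the genes called in RNA, up to 4 with the largest excess and deficit per list, the 10 largest of each among expressed genes, and the genes nearest the top regions, 1 of which is not reported here. The widest regions, the genes named for coverage over the whole gene and the Cdh5 windows were chosen after their values were seen.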

Additional observations from a re-analysis of the deposited data

How the results depend on the processing

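Medians of region width became 969 bp in 2Runx1 at equal number, and 889 bp in 2Runx1 and 602 bp in Ctrl with regions joined within 1 kb. The share of Ctrl regions in the other list was 74.0% at equal number, 72.3% when ranked by fold, 40.9% at equal covered length and 84.1% when 0.5 of the region had to overlap. The share of 2Runx1 regions was 58.5%, 56.9%, 75.4% and 20.6%. A −log10 q of at least 5 left no Ctrl region and was not run, and one of at least 2, added after seeing the data, gave 88.1% and 17.6%. Joined regions gave 45.6% of 2Runx1. Within 10 kb of a gene start lay 47.4% of Ctrl and 42.6% of 2Runx1 when measured from the region's centre. Measured from its edge, 47.8% of 2Runx1 did at equal number. Equal numbers of ATAC-seq peaks gave 51.5% of Ctrl regions with a peak, and equal number of regions 62.0% of 2Runx1. Genes with at least 2 kb more and less at the start numbered 4089 and 0 with full lists, 829 and 341 at equal covered length, 7569 and 28 within 50 kb, and 5806 and 41 over the gene with 10 kb flanks. TGTGGTTT gave 1.37% in place of 13.9%. Windows of 200 bp on the genome were not run. Each of these settings changes, by construction, the regions kept or the rule of counting.

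The RNA calls (34, with 19 higher and 15 lower) became 18 with 4 lower at a pseudocount of 0.1, 149 with 30 higher and 119 lower without a filter, 23 lower with quantile normalization, and 1 higher and 0 lower in a fit of E13.5 samples only, where 704 genes had an unadjusted p under 0.05. With the replicate number as a block 39 were called, 24 of them lower. Deviations of same-numbered libraries had correlations of −0.0611 to 0.107 over 15 pairs of groups, with 1 pair above 0.1. E13.5 Ctrl, with 1 library, entered no pair, and a shared batch or litter was not tested. Leaving out 2Runx1 replicate 1 gave 247 calls, with 143 higher and 104 lower, and leaving out replicate 2 gave 113, with 29 and 84. The cause was not tested. Of the 34 genes 15 kept their call in all these settings but the E13.5 fit, Runx1, Stat4, Itgb3 and Ltc4s among them, and 0 changed direction. Alox5 lost its call under the block, and C1qb lost its call at a pseudocount of 0.1.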

Other observations

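Other windows also had a low fold for their significance. The window chr16:35500001-35600000 had the lowest ratio of the Ctrl list, 0.884, and a ratio of 0.910 in 2Runx1, and its neighbour chr16:35400001-35500000 had 0.842 in 2Runx1. The next lowest of Ctrl were chr4:62500001-62600000, at 0.904, and chr2:118400001-118500000, at 0.923. In the ATAC-seq lists the window that holds Cdh5 had ratios of 0.788 in E13.5 Ctrl, 0.791 in E13.5 1Runx1 and 0.768 in E13.5 2Runx1, at ranks 770 of 8266, 759 of 8633 and 566 of 7001 windows. The adjoining chr8:104000001-104100000 had 0.983 in E13.5 Ctrl, 0.838 in E13.5 1Runx1 and 0.790 in E13.5 2Runx1, at ranks 3593, 1142 and 696. At E9.5 the Cdh5 window had 0.836 in Ctrl and 0.644 in 1Runx1, and the adjoining one 0.799 and 0.756. In adult liver of 2Runx1 they had 0.793 and 0.779, at ranks 48 and 41 of 2210. Neither window reached the minimum of 5 peaks in adult liver of Ctrl, so the liver values have no control beside them. The differences between groups at E9.5 and E13.5 were not tested.

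Largest over whole genes with 10 kb flanks, at equal number, was the excess of Arhgap26, with 53060 bp in Ctrl and 107919 bp in 2Runx1. Gse1 followed with 52237 and 100867 bp, Prkce, a protein kinase C gene, with 36555 and 84699 bp, and Zmiz1 with 60576 and 107315 bp. Tspan18, a tetraspanin gene of endothelium at 191 RPKM in Ctrl, had 44808 and 89019 bp. The deficit was largest for Mef2c, an endothelial and cardiac transcription factor gene (17405 and 12053 bp, with 24841 bp in the full list), before Cdh5, Pdlim5 (4907 and 1463 bp) and Mars2. Pdlim5 was also lower in the full list, 3807 bp. None of these genes passed the RNA test.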
